A study of Mus musculus with 8 samples.

Results

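The 28 genes described here make, sense and export cholesterol. They were chosen by symbol from a list of cholesterol synthesis, uptake, efflux and regulator genes. All 28 were found among the 23997 genes of the deposited table, and all 28 passed the filter on low values that left 12565 genes for testing. By role they fall into 7 genes of the mevalonate arm (Acat2, Hmgcs1, Mvk, Pmvk, Mvd, Idi1, Fdps), 9 of the sterol arm (Fdft1, Sqle, Lss, Cyp51, Tm7sf2, Nsdhl, Hsd17b7, Ebp, Dhcr7), 5 of SREBP control (Srebf1, Srebf2, Scap, Insig1, Insig2), 1 sterol carrier (Stard4), 2 LXR receptors (Nr1h2, Nr1h3) and 4 LXR targets (Abca1, Abcg1, Mylip, Lpcat3).

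Expression was measured by RNA-seq in leukemic bone marrow of C57BL/6 mice, in 8 libraries of 3 groups. The groups carried AML1-ETO with Meis2 (AE+Meis2, n = 3, median latency 171 days), AML1-ETO9a with Meis2 (AE9a+Meis2, n = 3, 102 days) or AML1-ETO9a without Meis2 (AE9a, n = 2, 138 days). AML1-ETO is a leukemia fusion of the blood regulator RUNX1 with the corepressor RUNX1T1, AML1-ETO9a is a shorter splice form of it, and Meis2 is a homeobox transcription factor. In all 3 groups the starting marrow came from mice given 5FU 4 days earlier, was cultured with IL3, IL6 and SCF, and after transduction was given at 1000000 cells per mouse, 48 hours later, to lethally irradiated recipients, so the marrow sampled can hold recipient and non-leukemic cells. The labels give neither the age of the mice, the promoter of the vectors, nor whether a library came from 1 animal or from several. P-values therefore set group differences only against the spread of these libraries within groups, which may be partly technical.

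Cholesterol synthesis starts from acetyl-CoA. The mevalonate arm builds isoprene units and joins them into farnesyl pyrophosphate, which also feeds protein prenylation, and the sterol arm turns that into squalene, lanosterol and finally cholesterol. When membrane sterol is low, SCAP escorts the SREBP transcription factors from the endoplasmic reticulum to the Golgi, where they are cleaved and then switch on genes of both arms. INSIG proteins hold SCAP back when sterol is plentiful. The LXR nuclear receptors respond to oxidised sterols and switch on genes of efflux (ABCA1, ABCG1), of LDL receptor turnover (MYLIP) and of membrane phospholipid remodelling (LPCAT3). In marrow, proliferating progenitors use the pathway to make membrane, and macrophages rely on efflux to dispose of the sterol of engulfed cells.

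RefSeq promoter windows of 300 bases (build GRCm38.p6, 250 bases before to 50 after a start site) were found for 23 of the 28 genes, in 32 windows. None was found for Fdft1, Fdps, Sqle, Stard4 and Abcg1, so the shares below leave these genes out. The classical sterol regulatory element was searched as TCACNCCAC, the CCAAT box bound by NF-Y, a partner of SREBP, as CCAAT, and the GC box bound by SP1 as GGGCGG, each on both strands. The 3 motifs cannot overlap in full, and each was counted separately. The CCAAT box was present in 18 of 23 genes, or 78.3%, against 41.1% of all 27025 genes with a window and 43.1% of the 9386 tested genes with one. The GC box was present in 20 of 23, or 87.0%, against 38.2% and 66.8%. The sterol regulatory element was found in 1 of 23, Hmgcs1, or 4.35%, against 1.44% of all genes, and a lack of these letters in the other windows says nothing of SREBP binding. Binding itself was not measured.

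The promoters of 4 genes are shown. Hmgcs1 was taken as the one with the element and Idi1 as the gene of widest range. Mvk and Mvd were taken as enzymes whose libraries separated AE+Meis2 from AE9a+Meis2. Those of Fdft1 did too, but it had no window. Capitals mark the sterol regulatory element and each CCAAT box, the latter as CCAAT or, on the other strand, ATTGG. Hmgcs1 (chr13:119690101-119690400, plus strand) holds 4 CCAAT boxes around the element TCACCCCAC, which begins at base -137 from the start site. Idi1 (chr13:8885356-8885655, plus strand) and Mvd (chr8:122443373-122443672, minus strand) hold 2 CCAAT boxes each, and Mvk (chr5:114444019-114444318, plus strand) holds 5.
Hmgcs1: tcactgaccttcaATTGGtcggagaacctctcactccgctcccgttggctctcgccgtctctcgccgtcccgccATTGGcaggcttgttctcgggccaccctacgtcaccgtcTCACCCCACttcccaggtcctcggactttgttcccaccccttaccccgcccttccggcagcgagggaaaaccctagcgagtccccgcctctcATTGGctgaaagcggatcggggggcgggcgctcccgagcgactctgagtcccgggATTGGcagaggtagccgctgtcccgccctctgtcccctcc
Mvk: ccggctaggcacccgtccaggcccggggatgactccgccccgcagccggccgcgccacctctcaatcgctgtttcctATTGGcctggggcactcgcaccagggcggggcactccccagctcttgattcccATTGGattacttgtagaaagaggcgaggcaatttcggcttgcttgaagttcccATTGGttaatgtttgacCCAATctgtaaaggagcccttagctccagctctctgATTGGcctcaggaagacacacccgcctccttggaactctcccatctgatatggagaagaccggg
Mvd: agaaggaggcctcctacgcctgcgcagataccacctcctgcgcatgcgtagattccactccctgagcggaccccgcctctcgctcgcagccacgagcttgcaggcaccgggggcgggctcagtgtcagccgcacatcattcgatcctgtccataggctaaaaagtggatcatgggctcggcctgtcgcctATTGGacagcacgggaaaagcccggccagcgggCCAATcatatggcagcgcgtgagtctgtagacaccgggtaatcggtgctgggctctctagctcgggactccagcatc
Idi1: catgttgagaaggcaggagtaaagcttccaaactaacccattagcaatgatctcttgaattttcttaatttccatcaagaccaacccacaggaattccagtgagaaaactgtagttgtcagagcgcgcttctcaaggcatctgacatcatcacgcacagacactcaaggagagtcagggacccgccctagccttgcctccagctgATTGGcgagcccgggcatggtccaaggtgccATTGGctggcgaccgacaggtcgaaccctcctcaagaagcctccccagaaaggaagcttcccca

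Values are FPKM, fragments scaled to transcript length and library size, so levels can be set side by side between genes. Where 8 values are given in a row, they run through AE+Meis2 replicates 1, 2 and 3, AE9a+Meis2 replicates 1, 2 and 3, and AE9a replicates 1 and 2. Differences are on the log2(FPKM + 1) scale with the standard error after ±, which understates the change of low genes. They come from 1 limma fit over all 8 libraries, and adjusted p-values (Benjamini-Hochberg) take in all 12565 genes, with 0.05 as the threshold.

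Several libraries stood apart from their labels or from the rest. Meis2 was listed at 13.1, 38.2 and 81.5 FPKM in AE+Meis2, at 621, 604 and 1277 in AE9a+Meis2 and at 6.99 and 13.2 in AE9a. Runx1t1 was at 21.6, 223 and 218 FPKM in AE+Meis2, where AE9a held 26.8 and 23.4 and AE9a+Meis2 between 10.3 and 18.0. The library labelled AE+Meis2 replicate 1 therefore had Meis2 within the range of AE9a and Runx1t1 below it, against its label. Of 1543 olfactory and vomeronasal receptor, keratin-associated protein and beta-defensin genes, families that marrow does not use, AE9a+Meis2 replicate 3 had 84.1% above 0 and AE9a replicate 1 had 72.1%, against 3.37% to 6.61% in the other 6 libraries. Of the marker genes of leukocytes, Ptprc (CD45) was at 39.4 to 298 FPKM. Summed neutrophil granule markers ranged from 950 FPKM in AE+Meis2 replicate 2 to 65049 in AE+Meis2 replicate 3. Erythroid markers ranged from 480 to 4663 and monocyte and macrophage markers from 724 to 1804, with no marker of these lists at 0 in any library. Summed stress and handling markers were at 958 to 1617 FPKM in AE9a+Meis2, 92.0 and 306 in AE9a, and 1002, 125 and 2401 in AE+Meis2. Stroma, fat and endothelium markers were lower in AE9a+Meis2, at 28.5 to 52.5 FPKM, than in AE+Meis2, at 60.8 to 103, or AE9a, at 101 and 121. Their part in the results below was not tested. In whole marrow, fewer cells of a type and less RNA per cell cannot be told apart.

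The cholesterol genes were active in every marrow. Of the 28, 27 were above 1 FPKM in all 8 libraries, the exception being Nr1h3, and 10 were above 10 FPKM in all of them. In 12 genes the highest library was less than 2 times the lowest, in 8 it was 2 to 4 times, and in 8 at least 4 times. The median range over libraries was 1.08 on the log2 scale, against 1.16 over all genes tested. Nsdhl, a sterol C4 demethylase subunit, had the narrowest range of the members, from 6.56 to 8.16 FPKM (0.28 on the log2 scale), and Idi1 the widest, from 5.67 to 286 FPKM (5.43).

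**Figure D1:**
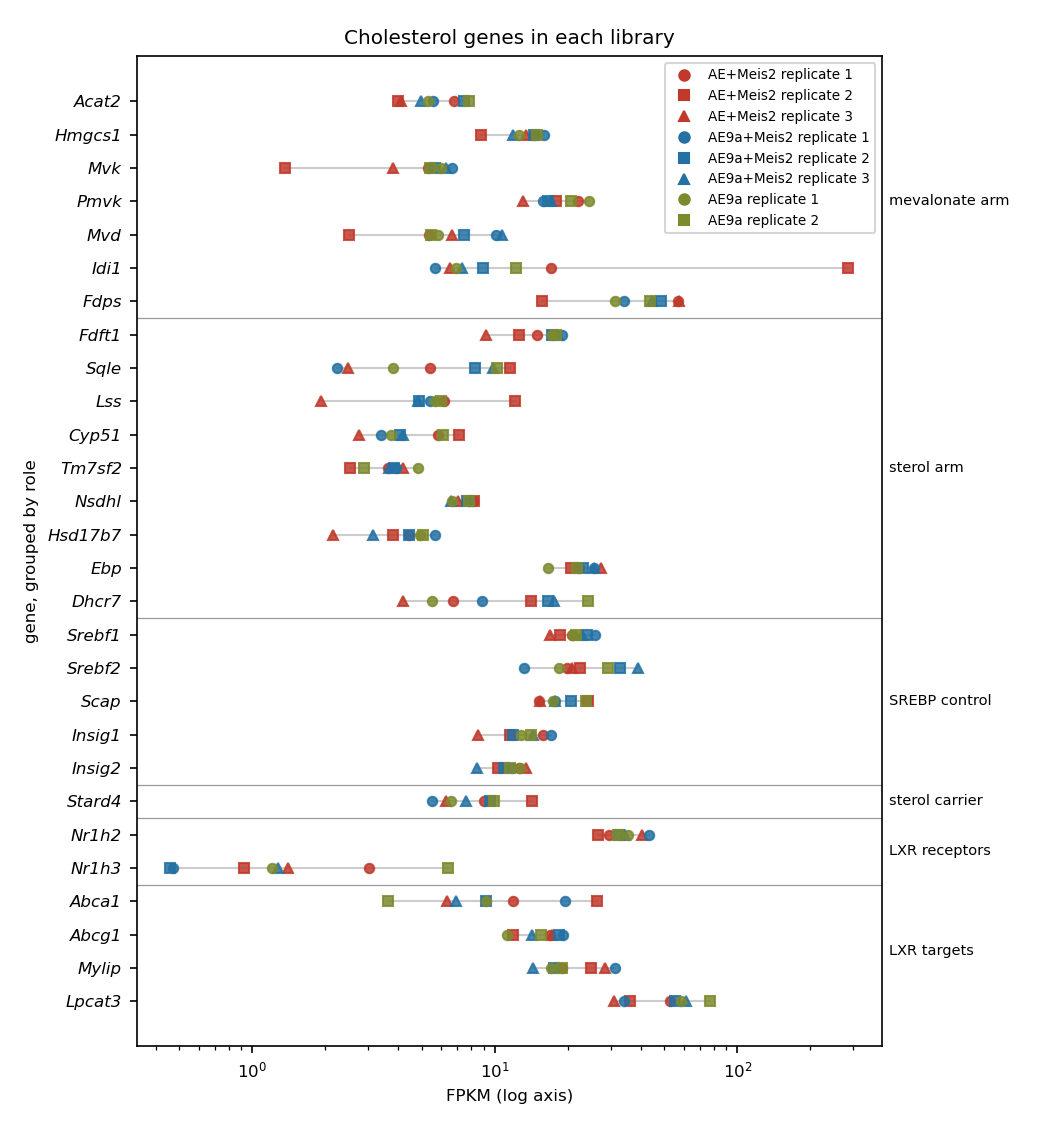
FPKM of the 28 genes on a log axis, 1 point per library, with colour for the group and shape for the replicate. In 12 of the 28 genes the highest library is less than 2 times the lowest. Idi1 in AE+Meis2 replicate 2 lies at 286 FPKM, and Nr1h3 spreads from 0.459 to 6.38 FPKM.

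In the mevalonate arm, AE+Meis2 replicate 2 was the lowest library for 5 of the 7 enzymes and the highest for Idi1. Hmgcs1, which makes HMG-CoA, was at 14.6, 8.74 and 13.4 FPKM in AE+Meis2, at 16.0, 14.4 and 11.9 in AE9a+Meis2 and at 12.6 and 15.0 in AE9a. Acat2, the cytosolic thiolase that begins the pathway, was at 3.99 to 7.80 FPKM. For both enzymes the groups overlapped and AE+Meis2 replicate 2 was the lowest library.

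Mvk, mevalonate kinase, was at 5.30, 1.37 and 3.79 FPKM in AE+Meis2, at 6.68, 5.68 and 6.28 in AE9a+Meis2 and at 5.98 and 5.40 in AE9a. All 3 AE+Meis2 libraries lay below all 5 others, the one labelled AE+Meis2 replicate 1 only just. The fitted difference of AE+Meis2 from AE9a+Meis2 was -0.80 ± 0.36 (adjusted p = 0.72), with a 95% interval from -1.64 to 0.05. Against AE9a it was -0.69 ± 0.40 (adjusted p = 0.95). Most of this rested on AE+Meis2 replicate 2: without it the differences were -0.39 and -0.28.

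Mvd, mevalonate diphosphate decarboxylase, was the only one of the 16 enzymes with every AE9a+Meis2 library above all others. It was at 5.32, 2.49 and 6.67 FPKM in AE+Meis2, at 10.1, 7.44 and 10.7 in AE9a+Meis2, and at 5.84 and 5.47 in AE9a. The closest libraries were AE9a+Meis2 replicate 2 and AE+Meis2 replicate 3. AE+Meis2 differed from AE9a+Meis2 by -0.90 ± 0.32 (unadjusted p = 0.026, adjusted p = 0.65, 95% interval -1.66 to -0.14), and AE9a+Meis2 from AE9a by 0.63 ± 0.36 (adjusted p = 1). Without AE+Meis2 replicate 2 the first of these was -0.57. These comparisons share the AE9a+Meis2 libraries, so they are not independent.

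Pmvk, phosphomevalonate kinase, acts between Mvk and Mvd and had another order. It was at 22.1, 17.8 and 13.0 FPKM in AE+Meis2, at 15.8, 16.6 and 17.1 in AE9a+Meis2 and at 24.4 and 20.5 in AE9a. AE9a+Meis2 lay below AE9a in every library, with a difference of -0.42 ± 0.25 (adjusted p = 1). Fdps, farnesyl pyrophosphate synthase, had 57.0, 15.6 and 57.6 FPKM in AE+Meis2, 34.0, 48.4 and 44.4 in AE9a+Meis2, and 31.2 and 43.4 in AE9a. AE+Meis2 thus held both its highest library and, in replicate 2, its lowest. Of the exonic bases of Fdps, 77.4% are shared with a same-strand annotated gene, Gm43738, which the table does not list, so fragments of both cannot be told apart.

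Idi1 stood furthest apart of all members. The isopentenyl diphosphate isomerase gene (chromosome 13, 8885606 to 8892396, GRCm38.p6) was at 17.0, 286 and 6.52 FPKM in AE+Meis2, at 5.67, 8.97 and 7.33 in AE9a+Meis2 and at 6.90 and 12.2 in AE9a. In AE+Meis2 replicate 2 it was 16.8 times the next library, and 5.11 above the median of the others on the log2 scale. Of the genes tested, 19 (0.151%) stood at least as far above their next library, 9 of them in AE+Meis2 replicate 2, and 34 (0.271%) were at least as far above the others' median in that library. The group differences, 2.04 ± 1.20 against AE9a+Meis2 (adjusted p = 0.76) and 1.73 ± 1.34 against AE9a (adjusted p = 0.95), rest on it. With Idi1 left out, the mean log2(FPKM + 1) of the other 6 enzymes of this arm was 2.82 in that same library, the lowest, against 3.51 to 3.77 in the other 7.

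The genes beside Idi1 were examined after its value was seen, within 1000 kb on each side, a window with 7 tested genes including Idi1. Idi2, its paralog 67.3 kb away, was listed at 95.3 FPKM in AE+Meis2 replicate 2 and at no more than 0.775 in any other library; it was high in 1 library only and so was not tested. Fragments shared by such similar genes may be split between them. Gtpbp4, a ribosome assembly GTPase next to Idi2 (8972070 to 8996116), was at 45.0, 262 and 28.3 FPKM in AE+Meis2, at 32.1, 32.6 and 22.0 in AE9a+Meis2 and at 25.7 and 36.5 in AE9a. On the other side, Wdr37 was at 19.6 FPKM in AE+Meis2 replicate 2 and at 12.3 to 16.7 elsewhere. On the log2 scale AE+Meis2 replicate 2 lay 2.99 above the median of the other libraries for Gtpbp4, 0.45 for Wdr37, 0.96 for Larp4b, 1.37 for Dip2c and 1.31 for Zmynd11. The high values were thus shared by 3 neighbouring genes of the table, and the excess was smaller for the genes around them.

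**Figure D2:**
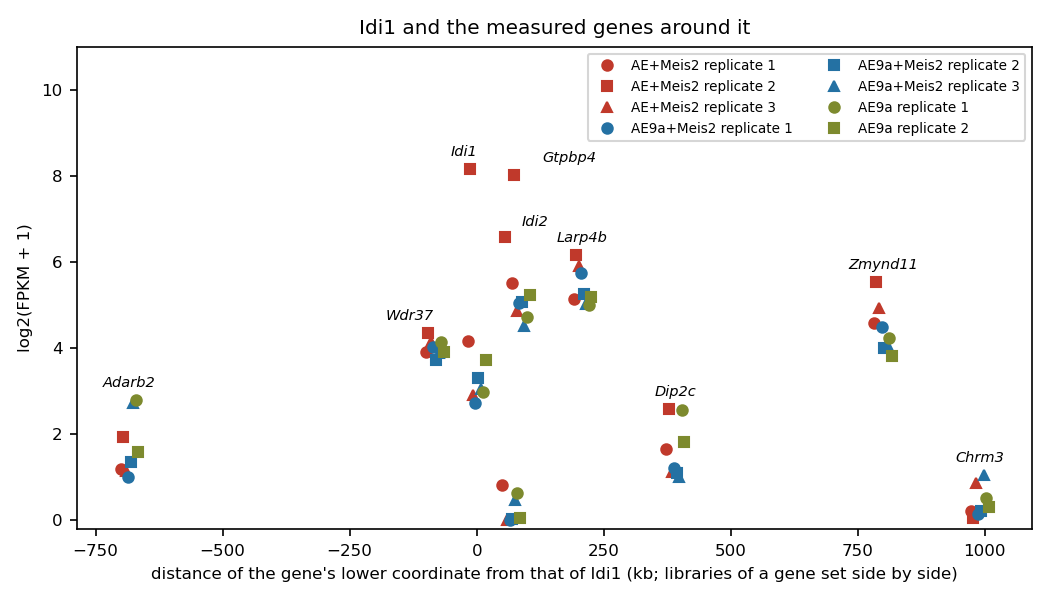
Level, as log2(FPKM + 1), of each annotated protein-coding gene in the table within 1000 kb of Idi1 against its distance in kb, 1 point per library. AE+Meis2 replicate 2 stands apart for Idi1, Idi2 and Gtpbp4, at 286, 95.3 and 262 FPKM, and by less or not at all for the others.

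In the sterol arm, Fdft1 was the gene whose AE+Meis2 libraries were lowest. Fdft1 is squalene synthase, the first enzyme committed to sterols. It was at 14.9, 12.6 and 9.21 FPKM in AE+Meis2, at 18.8, 17.2 and 18.2 in AE9a+Meis2, and at 17.2 and 17.9 in AE9a. All 3 AE+Meis2 libraries lay below the 5 others, which kept between 17.2 and 18.8. The difference from AE9a+Meis2 was -0.55 ± 0.21 (unadjusted p = 0.032, adjusted p = 0.67, 95% interval -1.03 to -0.06), and from AE9a -0.51 ± 0.23 (adjusted p = 0.85). The first was -0.69 once the library labelled AE+Meis2 replicate 1 was left out, and -0.37 once AE+Meis2 replicate 3 was. Fdft1 shares 20.9% of its exonic bases with Ctsb, a lysosomal protease gene on the opposite strand, and the kit does not mark strand. Ctsb was at 189, 157 and 144 FPKM in AE+Meis2, at 316, 140 and 138 in AE9a+Meis2 and at 151 and 110 in AE9a, so its groups overlapped.

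Other enzymes of the arm varied by library more than by group. Sqle, squalene epoxidase, was at 5.41, 11.5 and 2.49 FPKM in AE+Meis2, at 2.24, 8.25 and 9.82 in AE9a+Meis2 and at 3.81 and 10.2 in AE9a. Each group held both low and high libraries. Dhcr7, which catalyses the last step to cholesterol, was at 6.73, 14.1 and 4.19 FPKM, then 8.86, 16.5 and 17.6, and then 5.50 and 24.3 in the same group order. AE9a thus held its highest library and its second lowest. Sqle and Dhcr7 were named after their values were seen. In AE+Meis2 against AE9a+Meis2 their 95% intervals ran from -1.58 to 1.44 and from -2.20 to 0.60, too wide to show how alike the groups are.

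Lss, lanosterol synthase, was at 6.15, 12.1 and 1.92 FPKM in AE+Meis2, at 5.40, 4.84 and 4.82 in AE9a+Meis2 and at 5.68 and 6.02 in AE9a. The AE9a+Meis2 libraries lay just below those of AE9a, with a difference of -0.19 ± 0.56 (adjusted p = 1). Within AE+Meis2 it spanned the whole range of the gene, from 1.92 to 12.1. Hsd17b7, a sterol 3-ketoreductase, was at 4.42, 3.80 and 2.16 FPKM in AE+Meis2, at 5.68, 4.44 and 3.16 in AE9a+Meis2 and at 4.89 and 5.04 in AE9a. AE+Meis2 lay below AE9a in every library, by -0.46 ± 0.32 (adjusted p = 0.95), and overlapped AE9a+Meis2.

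Ebp, the sterol isomerase with the highest mean FPKM of the arm, was at 22.3, 20.5 and 27.3 FPKM in AE+Meis2, at 25.6, 23.1 and 25.7 in AE9a+Meis2 and at 16.6 and 21.8 in AE9a. AE9a+Meis2 lay above AE9a in every library, by 0.36 ± 0.21 (adjusted p = 1, 95% interval -0.13 to 0.86). The remaining 3 genes of the arm overlapped between all groups: Cyp51, lanosterol demethylase, at 2.75 to 7.13 FPKM, Tm7sf2, a sterol C14 reductase, at 2.53 to 4.80, and Nsdhl. As a mean of log2(FPKM + 1) over the 9 genes, the arm was lowest in AE+Meis2 replicate 3, at 2.54, and highest in AE9a replicate 2, at 3.36.

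**Figure D3:**
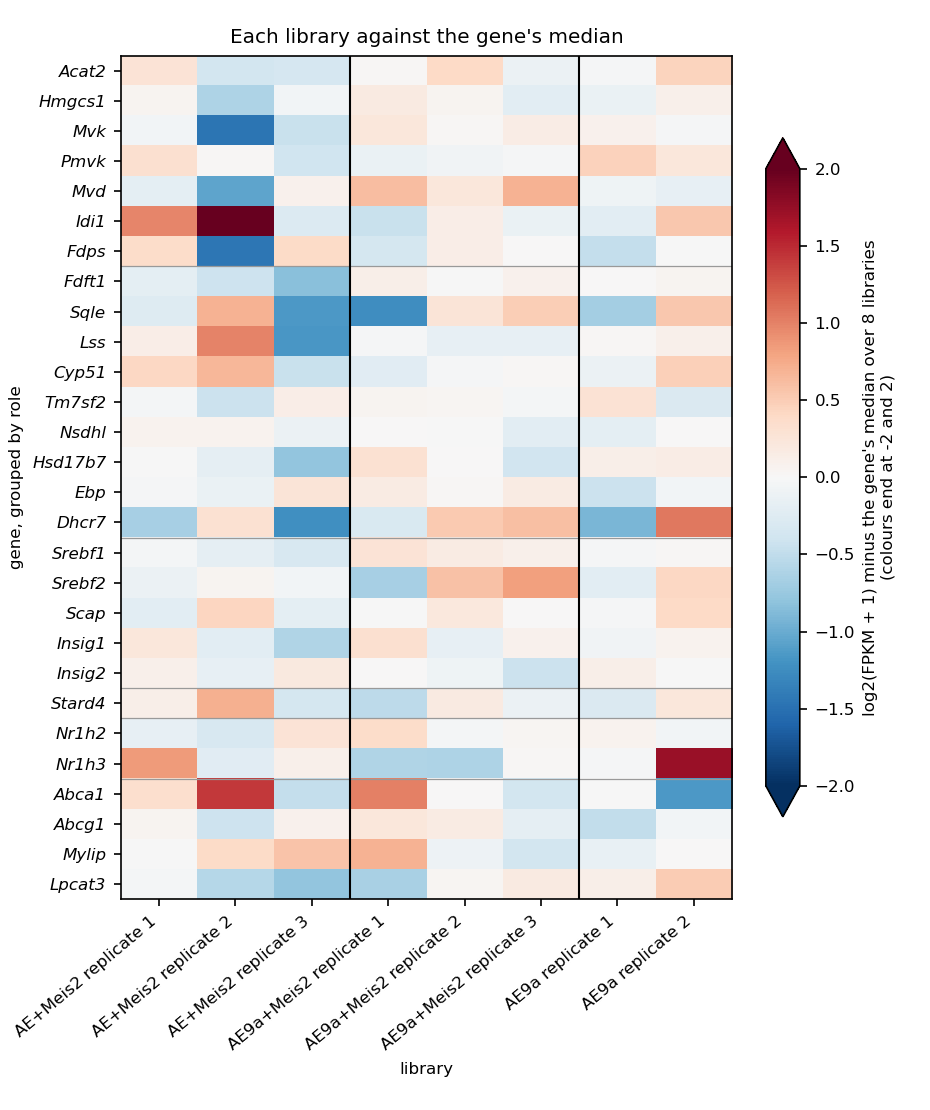
Each gene's log2(FPKM + 1) in a library minus its median over the 8 libraries, as colour from -2 to 2, with black lines between the groups. The column of AE+Meis2 replicate 2 is low for Mvk, Mvd and Fdps and high for Idi1, Lss, Stard4 and Abca1, and that of AE+Meis2 replicate 3 is low for Sqle, Lss and Dhcr7.

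Among the genes of SREBP control, Srebf1 moved little but in a fixed order. Srebf1 encodes the SREBP-1 proteins, which act mostly on fatty acid genes. It was at 20.7, 18.6 and 16.9 FPKM in AE+Meis2, at 25.9, 24.0 and 22.8 in AE9a+Meis2 and at 20.9 and 21.6 in AE9a. The 3 groups did not overlap, with AE+Meis2 lowest and AE9a+Meis2 highest, although the library labelled AE+Meis2 replicate 1 and AE9a replicate 1 differed by less than 1 FPKM. The differences were -0.36 ± 0.16 for AE+Meis2 against AE9a+Meis2 (adjusted p = 0.72), -0.18 ± 0.18 for AE+Meis2 against AE9a (adjusted p = 0.95) and 0.18 ± 0.18 for AE9a+Meis2 against AE9a (adjusted p = 1). None passed the threshold.

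Srebf2, which encodes SREBP-2, the main activator of cholesterol synthesis, was at 19.8, 22.4 and 20.9 FPKM in AE+Meis2, at 13.2, 32.9 and 39.0 in AE9a+Meis2 and at 18.5 and 29.1 in AE9a. The AE9a+Meis2 group held both the lowest library and the highest. Scap, the escort, was at 15.1 to 24.2 FPKM, Insig1 at 8.53 to 17.0 and Insig2 at 8.41 to 13.4, and the groups overlapped for all 3. Stard4, a soluble sterol carrier, was at 9.05, 14.2 and 6.26 FPKM in AE+Meis2, at 5.48, 9.52 and 7.60 in AE9a+Meis2 and at 6.61 and 9.88 in AE9a, again overlapping.

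The 2 LXR receptors differed in level and in spread. Nr1h2, LXR beta, was at 29.6, 26.6 and 40.5 FPKM in AE+Meis2, at 43.4, 32.6 and 34.3 in AE9a+Meis2 and at 35.3 and 32.3 in AE9a, with overlapping groups. Nr1h3, LXR alpha, was the lowest member, at 3.03, 0.919 and 1.40 FPKM in AE+Meis2, at 0.472, 0.459 and 1.28 in AE9a+Meis2 and at 1.20 and 6.38 in AE9a. AE9a+Meis2 differed from AE9a by -1.25 ± 0.56 (unadjusted p = 0.061, adjusted p = 1), but AE9a replicate 1 lay within the AE9a+Meis2 range, and AE9a replicate 2 alone was high. Spic and Cd5l, genes of marrow macrophages that take up red cells, were named with Nr1h3 after their values were seen. Spic was at 6.37, 1.66 and 1.37 FPKM in AE+Meis2, at 0.505, 0.519 and 0.917 in AE9a+Meis2 and at 5.85 and 13.6 in AE9a, and Cd5l was highest, at 9.12, in AE9a replicate 2 too. The summed list of 15 monocyte and macrophage markers was at 1157 to 1804 FPKM in AE9a+Meis2 against 799 to 1079 in AE9a. Within it 9 markers had the higher mean in AE9a+Meis2, Lgals3 and Ctss among them, and 6 the lower: Spic, Cd5l, Vcam1, C1qa, C1qb and C1qc. The part of these cells in the Nr1h3 values was not tested.

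The LXR targets did not share 1 pattern. Lpcat3, a lysophospholipid acyltransferase and the LXR target with the highest mean FPKM, was at 52.8, 36.0 and 31.0 FPKM in AE+Meis2, at 34.1, 55.5 and 61.5 in AE9a+Meis2 and at 58.6 and 77.1 in AE9a. AE+Meis2 lay below AE9a in every library, by -0.77 ± 0.33 (unadjusted p = 0.052, adjusted p = 0.83, 95% interval -1.55 to 0.01). Abca1, the exporter of cholesterol to apolipoprotein A-I, was at 11.9, 26.3 and 6.35 FPKM in AE+Meis2, at 19.5, 9.23 and 6.94 in AE9a+Meis2 and at 9.16 and 3.62 in AE9a. The groups overlapped, and the difference of AE+Meis2 from AE9a was 1.00 ± 0.65 (adjusted p = 0.95). Its lowest library, AE9a replicate 2, was the highest for Nr1h3 and Lpcat3. Abcg1, the exporter to HDL, was at 11.2 to 19.1 FPKM, and Mylip, the ligase that degrades the LDL receptor, at 14.4 to 31.2.

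Extremes were not spread evenly over libraries. AE+Meis2 replicate 2 was the highest library for 8 members and the lowest for 7, together 53.6% of them, beside 50.7% of all genes tested. AE+Meis2 replicate 3 was the highest for 3 and the lowest for 9, or 42.9% beside 42.0%. AE9a+Meis2 replicate 1 was the highest for 9 members and the lowest for 4, or 46.4% beside 23.9% of all genes. The library labelled AE+Meis2 replicate 1 was at an end for 1 member, or 3.57%, beside 15.3% of all genes.

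AE9a+Meis2 against AE9a asks what Meis2 adds to the short fusion. By adjusted p, 6 of the 12565 genes passed (0.0478%), and 0 of the 28 members did. At an unadjusted p under 0.05, 3.06% of all genes and 0 of 28 members passed in limma. Ebp, Mvd and Srebf1 were higher with no overlap between groups, 3 of 28 where 13.1% of all genes were, and Lss and Pmvk lower, 2 of 28 where 10.7% were. With 3 libraries against 2, these shares are near the background. The summed stress and handling markers given above did not overlap between these groups either, and 9 of 9 markers had the higher mean in AE9a+Meis2. Taken singly, Hspa1b did overlap, at 0.396 to 0.997 FPKM in AE9a+Meis2 and 0.391 and 0.447 in AE9a. The part of these markers was not tested. Of the members 16 had a positive difference and 12 a negative one, beside 49.8% and 50.1% of all genes, and the median was 0.02 beside -0.0011 over all genes tested.

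By label, AE+Meis2 against AE9a+Meis2 compares the full-length with the short fusion, both with Meis2. Meis2 RNA was not matched: it differed by -4.45 ± 0.65 (adjusted p = 0.14), with no overlap between the groups. The parts of the fusion and of the Meis2 level cannot be told apart here. Of all genes 5 (0.0398%) passed by adjusted p, and 0 of 28 members, whose smallest adjusted p was 0.65. At an unadjusted p under 0.05 stood 7.15% of all genes and 2 members, Mvd and Fdft1, both lower in AE+Meis2 like 4.05% of all genes. Mvk, Mvd, Fdft1 and Srebf1 were lower with no overlap, 4 of 28 (14.3%) beside 6.49% of all genes. They were all the members without overlap in either direction, beside 13.5% of all genes. In all, 18 members had a negative difference and 10 a positive one, beside 45.1% and 54.9% of all genes, and the median was -0.15 beside 0.04. These 4 genes sit in the mevalonate arm, the sterol arm and SREBP control. Without the library labelled AE+Meis2 replicate 1 their differences were -1.10 for Mvk, -1.0 for Mvd, -0.69 for Fdft1 and -0.43 for Srebf1. Other libraries left out moved them either way. Without AE+Meis2 replicate 2 they were -0.39 for Mvk and -0.57 for Mvd. Without AE+Meis2 replicate 3 they were smaller for Fdft1, at -0.37, and Srebf1, at -0.29, but larger for Mvd, at -1.14. The non-overlap counts without the library labelled AE+Meis2 replicate 1 were 6 lower, beside 11.9% of all genes, and 0 higher, beside 13.8%.

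By label, AE+Meis2 against AE9a differs in both the fusion and Meis2, though Meis2 RNA overlapped between these groups. By adjusted p 4 genes passed (0.0318%), and 0 of 28 members, whose smallest adjusted p was 0.83. At an unadjusted p under 0.05 stood 5.98% of all genes and 0 members. Mvk, Fdft1, Hsd17b7, Srebf1 and Lpcat3 were lower with no overlap, 5 of 28 (17.9%) beside 8.66% of all genes, and 0 were higher, beside 9.96%. Negative differences were found for 19 members and positive ones for 9, beside 44.1% and 55.9% of all genes, and the median was -0.15 beside 0.06. This comparison shares the AE+Meis2 libraries with the one before, so Mvk, Fdft1 and Srebf1 in both counts rest on the same 3 AE+Meis2 libraries. The 95% intervals of the members had a median half-width of 0.77 in both comparisons with AE9a and of 0.69 in the other, with a range over members from 0.38 to 3.15.

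**Figure D4:**
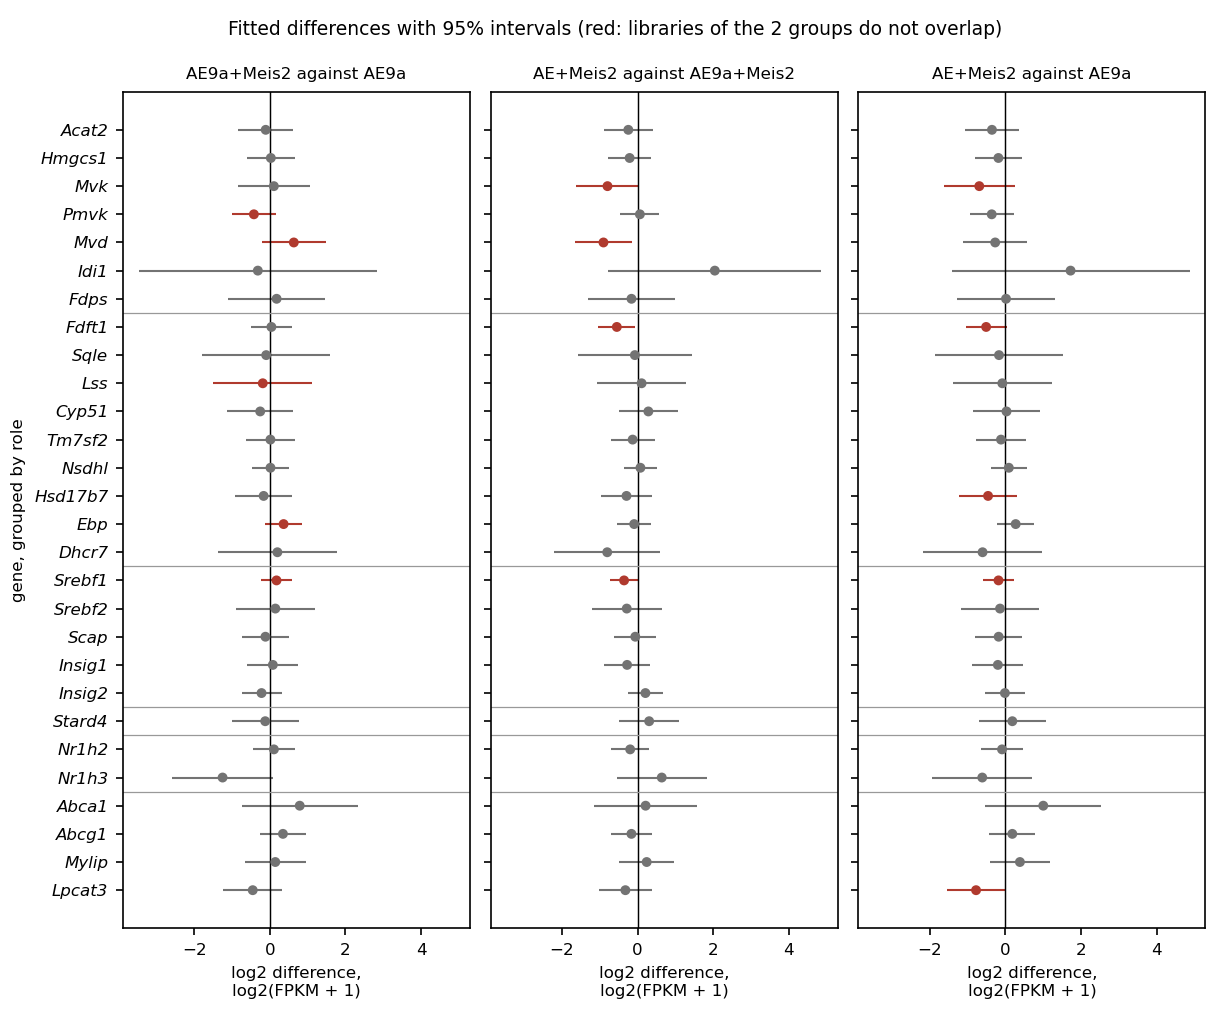
Fitted difference of each gene with its 95% interval in the 3 comparisons, on the log2(FPKM + 1) scale, with red for genes whose libraries do not overlap between the groups. The intervals of Mvd and Fdft1 in AE+Meis2 against AE9a+Meis2 end below 0, before adjustment over all genes, and the interval of Idi1 is the widest of the members.

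The rest of the pathway was read from 6 lists of 47 further genes, of which 46 were in the table and 44 were tested. By adjusted p 0 of 44 passed in each comparison. At an unadjusted p under 0.05 there were 5 higher and 2 lower in AE9a+Meis2 against AE9a, beside 1.93% and 1.13% of all genes. AE+Meis2 against AE9a+Meis2 had 2 higher and 7 lower, beside 3.10% and 4.05%, and AE+Meis2 against AE9a had 1 higher and 0 lower, beside 2.95% and 3.03%. Other genes of sterol synthesis added 0 of 6 in each comparison, among them Sc5d at 10.4 to 17.7 FPKM and Msmo1, the sterol C4 methyl oxidase, at 7.38 to 19.1. Other genes of SREBP control added 0 of 5.

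Genes that bring in cholesterol made up 5 of the 7 genes lower against AE9a+Meis2. Of 8 tested genes of uptake and lysosomal egress, 5 were lower at an unadjusted p under 0.05 in AE+Meis2 than in AE9a+Meis2 and 0 higher, with a list median of -0.83, beside 4.05% and 3.10% of all genes and a median of 0.04. In AE9a+Meis2 against AE9a, 2 were higher and 1 lower, beside 1.93% and 1.13% of all genes, with a list median of 0.54. Lrp1, an endocytic receptor for lipoprotein remnants, was at 5.67, 9.11 and 6.57 FPKM in AE+Meis2, at 98.9, 29.0 and 32.9 in AE9a+Meis2 and at 24.1 and 7.37 in AE9a. AE+Meis2 and AE9a+Meis2 did not overlap, with a difference of -2.55 ± 0.57 (adjusted p = 0.37). AE9a+Meis2 lay above AE9a by 1.69 ± 0.63 (adjusted p = 1). Npc2, the lysosomal cholesterol carrier, was at 81.0, 50.6 and 90.8 FPKM in AE+Meis2, at 144, 116 and 138 in AE9a+Meis2 and at 84.4 and 60.4 in AE9a. AE9a+Meis2 was above every other library, by 0.88 ± 0.29 over AE9a (adjusted p = 1), and AE+Meis2 differed from it by -0.86 ± 0.26 (adjusted p = 0.57). Scarb1, the HDL receptor, was at 32.5, 12.2 and 40.6 FPKM in AE+Meis2, at 68.6, 47.3 and 44.8 in AE9a+Meis2 and at 50.9 and 40.2 in AE9a. Its difference between the first 2 groups was -1.02 ± 0.43 (adjusted p = 0.69). Macrophages express Lrp1 and Npc2 strongly, and the summed monocyte and macrophage markers were at 724 to 1290 FPKM in AE+Meis2, 1157 to 1804 in AE9a+Meis2 and 799 to 1079 in AE9a. The list did not move as 1: in AE+Meis2 against AE9a+Meis2 the mean was lower for 8 of 15 markers and higher for 7. Lgals3 was at 123 to 176 FPKM in AE+Meis2 and 316 to 501 in AE9a+Meis2, while C1qb was at 15.2 to 143 and 8.40 to 13.7. Their part in these values was not tested.

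Of the 8 genes of storage and sterol carriers, Soat1, which esterifies cholesterol for storage, had an unadjusted p under 0.05 in both comparisons with AE9a+Meis2. It was at 10.9, 9.10 and 23.8 FPKM in AE+Meis2, at 46.5, 31.2 and 22.9 in AE9a+Meis2 and at 13.4 and 12.3 in AE9a. AE9a+Meis2 lay above AE9a in every library, by 1.26 ± 0.44 (adjusted p = 1), and overlapped AE+Meis2 through replicate 3 of each group (-1.20 ± 0.39, adjusted p = 0.62). Both comparisons share the AE9a+Meis2 libraries.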

How the data were processed

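The authors deposited 1 table of FPKM for 23997 genes in 8 libraries. Per the labels' protocols, RNA was extracted with TRIzol and libraries made with the TruSeq RNA version 2 kit, which does not mark strand. The submitters' processing notes name TopHat, Cufflinks, Cuffdiff and the mouse build mm10, while versions and settings were not given in these sources. The table holds no counts. Absolute depth is unknown, and intervals cover the spread between libraries only. Low values gave a rough relative depth spanning 3.05 on the log2 scale, too few (3.44% to 8.34%) sharing a step to recover reads. By this measure AE9a replicate 1 (3.05) and AE+Meis2 replicate 2 (2.76) were the shallowest, set against AE9a+Meis2 replicate 2. The part of depth in the values of AE+Meis2 replicate 2 was not tested.

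Groups came from sample titles. The deposited FPKM were taken to log2(FPKM + 1). Genes of at least 1 FPKM in at least 2 libraries were tested with limma 3.58.1 (trended empirical Bayes, R 4.3.3, two-sided), with 5 residual and 2.28 prior degrees of freedom. The fit was tested on simulated data. Tables were made with pandas 2.3.3 and NumPy 2.4.6 in Python 3.11.15, and plots with matplotlib 3.10.9. Exon overlaps are from GENCODE, gene positions and promoters from RefSeq (GRCm38.p6).

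The members and all lists were chosen with earlier results of these data known. Values in every library are given for members with an unadjusted p under 0.05 or groups that do not overlap, and for the highest member of each role. From each other list up to 4 genes are named by smallest p. Some genes of those lists are counted but not reported here. For each comparison 17 alternatives were run, on pseudocount, filter, scaling, trend, libraries used and replicate block.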

Additional observations from a re-analysis of the deposited data

How the results depend on the processing

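With 2 or 3 libraries a group, counts of called genes are unsteady, and no member passed the adjusted threshold in any of the 17 alternatives of each comparison (0 of 28). The member medians ran from -0.12 to 0.13 in AE9a+Meis2 against AE9a, from -0.17 to -0.10 in AE+Meis2 against AE9a+Meis2 and from -0.23 to -0.0019 in AE+Meis2 against AE9a. Same-numbered libraries of different groups were correlated by their deviations from each gene's group mean, over the genes tested. These correlations lay between -0.025 and 0.13, 1 of 7 pairs over 0.1, so the numbers are not taken as pairs. The deviations of the 2 AE9a libraries mirror each other, so pairs with them are not independent.

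Over all genes tested, AE9a+Meis2 against AE9a called 6 genes, but 2 with a replicate block, 3 without AE9a+Meis2 replicate 3 and AE9a replicate 1 (the pair with values in unused gene families), and 2 to 9 with 1 library left out, 2 without AE9a replicate 1. AE+Meis2 against AE9a+Meis2 called 5, and 6 to 23 with 1 library left out, 23 without AE+Meis2 replicate 3. AE+Meis2 against AE9a called 4, but 1 with no filter on low values, 2 with only the 2 groups compared, 0 with a replicate block, and 1 to 10 with 1 library left out, 10 without AE+Meis2 replicate 3. The cause was not tested. Of the members, Lss in AE9a+Meis2 against AE9a reversed, from -0.19 to 0.11, with the replicate block.

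Counts of members whose groups do not overlap were recomputed in alternatives chosen after seeing the data. Without that pair they were 8 higher and 12 lower in AE9a+Meis2 against AE9a (36.1% and 38.6% of all genes, 2 libraries against 1). There they were 1 higher and 6 lower in AE+Meis2 against AE9a+Meis2 (10.04% and 9.85% of all genes). Without the same pair they were 1 higher and 10 lower in AE+Meis2 against AE9a (16.9% and 18.3%). Without AE+Meis2 replicate 2 they were 3 higher and 6 lower against AE9a+Meis2 (12.0% and 10.2%) and likewise 3 and 6 against AE9a (19.8% and 16.2%). Without the library labelled AE+Meis2 replicate 1 they were 1 higher and 8 lower against AE9a (17.8% and 15.0%). Fewer libraries make overlap less likely, as the shares of all genes show.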

Other observations

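The neighbouring lipid genes were read in the same way, and 0 passed by adjusted p in limma. Of 10 tested fatty acid genes that SREBP-1 activates, 1 was higher at an unadjusted p under 0.05 in each comparison with AE+Meis2, beside 3.10% of all genes against AE9a+Meis2 and 2.95% against AE9a. Elovl5, an elongase of polyunsaturated fatty acids, was at 48.1, 56.6 and 58.1 FPKM in AE+Meis2, at 34.3, 35.7 and 28.6 in AE9a+Meis2 and at 30.5 and 33.3 in AE9a. The 3 AE+Meis2 libraries lay above all 5 others, by 0.71 ± 0.17 over AE9a+Meis2 (adjusted p = 0.42) and 0.74 ± 0.19 over AE9a (adjusted p = 0.50). Srebf1 itself was lowest in AE+Meis2. Fads1 and Fads2, adjacent desaturase genes, were highest in AE+Meis2 replicate 2, at 59.2 and 73.4 FPKM, against at most 17.7 and 2.46 in the other libraries.

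Of 7 other LXR targets and lipoprotein genes, Apoc2 and Pltp separated AE9a+Meis2 from both other groups, in opposite directions. In AE9a+Meis2 against AE9a, 3 of 7 were higher and 1 lower with no overlap, beside 13.1% and 10.7% of all genes. Abca7 was among the higher, by 0.52 ± 0.18 (unadjusted p = 0.024). In AE+Meis2 against AE9a+Meis2, 1 was higher and 1 lower, beside 13.5% of all genes in either direction. Apoc2, the cofactor of lipoprotein lipase, was at 3.41, 4.01 and 1.90 FPKM in AE+Meis2, at 22.0, 14.3 and 43.5 in AE9a+Meis2 and at 4.21 and 1.76 in AE9a. AE9a+Meis2 lay above AE9a by 2.72 ± 0.51 (adjusted p = 0.60), and AE+Meis2 differed from it by -2.64 ± 0.46 (adjusted p = 0.26). Pltp, the phospholipid transfer protein, was at 18.7, 23.8 and 14.9 FPKM in AE+Meis2, at 4.39, 1.88 and 6.79 in AE9a+Meis2 and at 15.2 and 24.8 in AE9a. Its differences were -2.05 ± 0.45 for AE9a+Meis2 against AE9a (adjusted p = 0.77) and 2.00 ± 0.40 for AE+Meis2 against AE9a+Meis2 (adjusted p = 0.31). Both comparisons share the AE9a+Meis2 libraries. Stroma, fat and endothelium markers, 11 genes in all with none at 0, summed to 28.5 to 52.5 FPKM in AE9a+Meis2, 60.8 to 103 in AE+Meis2 and 101 and 121 in AE9a. Like Pltp, the sum was lowest in AE9a+Meis2, where 10 of 11 means were below AE9a and 11 of 11 below AE+Meis2. Between AE+Meis2 and AE9a the list did not follow its sum: 9 means were higher in AE+Meis2, and those of Fabp4 and Lepr lower. The 15 monocyte and macrophage markers summed to 1157 to 1804 FPKM in AE9a+Meis2, 724 to 1290 in AE+Meis2 and 799 and 1079 in AE9a, but C1qa, C1qb and C1qc had lower means in AE9a+Meis2 than in both other groups, unlike Apoc2. The part of these cells in the Apoc2 and Pltp values was not tested.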
